A study of Mus musculus with 11 samples.

Results

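The regions described here are 10-kb tiles of the mouse genome that lie outside every histone mark peak of the series. Chromosomes 1 to 19 were divided into adjoining 10-kb tiles, and a tile was kept when it overlapped no unified peak of H3K4me1, H3K9me3 or H3K27me3 and held at least 20 calls in the deepest H3K27me3 library. A call is 1 sequenced cytosine of a CpG read as methylated or unmethylated. The rule kept 51836 tiles of the 239710 with a listed CpG. Another 122961 tiles outside all peaks held fewer than 20 calls, and 64913 tiles overlapped a peak. The choice used peak positions and the number of calls, not the methylation level.

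All libraries came from E14 cells, a mouse embryonic stem cell line of 129/Ola background grown in serum with leukemia inhibitory factor. In CUT&Tag-BS an antibody to a histone mark directs the transposase pA-Tn5 to chromatin, and the cut DNA, carrying methylated adapters, is treated with bisulfite, so that each fragment reports both the mark and the methylation of its CpGs. 8 bisulfite libraries gave calls. H3K4me1 (run 1 and run 2) and H3K9me3 (run 1 and run 2) were made from 250000 cells and read at 35 bp in run 1 and 75 bp in run 2. H3K27me3 was profiled in 4000, 20000, 100000 and 250000 cells, named here 4K, 20K, 100K and 250K. 3 libraries without bisulfite, 1 for each mark, gave peaks but no calls. There were no separate cultures within a group, so every test below compares libraries and not conditions.

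In mammalian genomes most CpGs outside regulatory sequence are methylated, and CpG islands, the CpG-dense stretches at many gene starts, are usually not. H3K4me1 marks enhancers and the flanks of promoters, H3K27me3 is laid down by Polycomb on repressed genes, and H3K9me3 marks heterochromatin and silenced repeats. Fragments outside the peaks of such an assay come from transposase cutting away from called sites.

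5 promoters inside these tiles show the range of sequence that the levels below refer to. They are RefSeq sequences (GRCm38.p6, the assembly behind mm10), each 300 bp from 250 bp before to 50 bp after the gene's start, written along the gene's strand with every CpG in capitals. The first 3 belong to tiles that are among the lowest by the rule for named tiles, and the last 2 were chosen after their levels were seen, as a CpG-rich and a CpG-poor promoter that were methylated.
Nrd1 promoter, chr4:109000405-109000704, plus strand: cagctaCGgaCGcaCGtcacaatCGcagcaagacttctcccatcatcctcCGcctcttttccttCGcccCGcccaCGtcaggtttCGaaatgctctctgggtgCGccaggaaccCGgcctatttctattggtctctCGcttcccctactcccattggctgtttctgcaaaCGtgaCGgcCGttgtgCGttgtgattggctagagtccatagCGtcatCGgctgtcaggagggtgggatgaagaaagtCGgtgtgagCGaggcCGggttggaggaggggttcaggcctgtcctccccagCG
Hnrnpk promoter, chr13:58402068-58402367, minus strand: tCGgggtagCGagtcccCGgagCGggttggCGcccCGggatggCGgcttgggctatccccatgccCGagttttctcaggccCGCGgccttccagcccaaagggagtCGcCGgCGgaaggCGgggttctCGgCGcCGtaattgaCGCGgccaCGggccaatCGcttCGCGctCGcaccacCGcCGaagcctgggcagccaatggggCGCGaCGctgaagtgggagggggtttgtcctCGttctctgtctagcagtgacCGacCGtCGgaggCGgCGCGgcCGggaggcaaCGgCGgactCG
Klf4 promoter, chr4:55532426-55532725, minus strand: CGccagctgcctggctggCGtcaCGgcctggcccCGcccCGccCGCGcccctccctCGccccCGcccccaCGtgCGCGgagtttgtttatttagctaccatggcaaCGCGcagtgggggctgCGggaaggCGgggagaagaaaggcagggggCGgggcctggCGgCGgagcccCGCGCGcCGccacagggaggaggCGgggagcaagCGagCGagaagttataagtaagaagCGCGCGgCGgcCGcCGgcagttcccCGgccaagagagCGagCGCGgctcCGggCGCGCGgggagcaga
Scn10a promoter, chr9:119718983-119719282, minus strand: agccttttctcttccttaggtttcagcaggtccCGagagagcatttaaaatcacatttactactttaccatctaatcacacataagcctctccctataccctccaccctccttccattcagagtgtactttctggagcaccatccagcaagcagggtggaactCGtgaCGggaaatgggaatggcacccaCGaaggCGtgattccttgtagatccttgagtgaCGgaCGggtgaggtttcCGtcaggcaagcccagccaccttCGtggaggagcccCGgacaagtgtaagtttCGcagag
Lcn2 promoter, chr2:32387690-32387989, minus strand: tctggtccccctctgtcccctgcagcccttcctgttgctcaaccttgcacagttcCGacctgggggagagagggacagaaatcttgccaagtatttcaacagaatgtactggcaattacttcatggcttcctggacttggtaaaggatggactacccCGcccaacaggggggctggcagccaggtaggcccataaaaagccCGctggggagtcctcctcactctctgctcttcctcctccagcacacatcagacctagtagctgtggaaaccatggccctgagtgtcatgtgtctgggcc

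In 250K the Nrd1 promoter, which has 22 CpGs, gave 0 methylated calls of 44, which allows a level of up to 6.8%. The Hnrnpk promoter gave 0 of 14 (up to 21.4%) and the Klf4 promoter 0 of 11 (up to 27.3%). The Scn10a promoter, with 11 CpGs, gave 19 methylated calls of 22 (86.4%, Wilson 95% interval 66.7 to 95.3). The Lcn2 promoter, with 3 CpGs, gave 25 of 30 (83.3%, 66.4 to 92.7), although its tile held 2267 calls at 24.3%. In 100K the methylated calls were 0 of 5 for Nrd1, 17 of 21 for Scn10a and 9 of 10 for Lcn2. Intervals and limits here and below cover counting error only, since calls on the same fragment are not independent and molecules carried no identifiers.

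8 of 10 stem cell marker genes carried an H3K4me1 peak, Sox2 and Klf4 being the exceptions, and the Klf4 start lies in a kept tile. The median kept tile held 38 calls in 250K, against a median of 267 in the 24278 tiles that overlapped an H3K27me3 peak. 251 kept tiles reached that peak median.

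The kept tiles held 2841331 calls in 250K, which was 7.64% of the library. The numbers were 36241 in 4K, 434265 in 20K and 1976673 in 100K. H3K4me1 placed 361114 calls (run 1) and 719600 calls (run 2) in these tiles, 7.34% and 7.43% of each library. H3K9me3 placed 353295 and 1084038 calls there, 17.6% and 17.1%. The median tile had 3 calls in H3K4me1 run 2, 12 in H3K9me3 run 2, 27 in 100K and 0 in 4K. Per-tile statements about 4K were therefore not possible for most tiles, and only 138 reached 20 calls in it.

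Most of these tiles were highly methylated. In 250K the median tile was at 84.1%, with quartiles of 75.0 and 90.1%. 33516 tiles (64.7%) were at 80% or above, 14750 lay from 50 to 80%, 2413 from 20 to 50% and 1157 under 20%. The SD over tiles was 17.5 points, against 7.50 points computed from the numbers of calls with every call taken as independent. Calls on the same fragment are not independent, so the SD from call numbers alone can be larger than 7.50. A tile at the median, chr1:92360001-92370000 in intergenic sequence, had 53 methylated calls of 63 (84.1%) in 250K, and 10 of 12 in H3K9me3 run 2, 26 of 46 in H3K4me1 run 2 and 32 of 32 in 100K.

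The pooled level, all methylated calls over all calls, was lower than the median tile in 250K: 71.1% (71.0 to 71.1), with single chromosomes from 51.2 to 76.5%. It was 65.7% in 4K, 69.1% in 20K and 70.8% in 100K. H3K9me3 was at 80.2% in run 1 and 80.1% in run 2. H3K4me1 was at 44.6% and 44.7%. The runs of a mark gave nearly equal levels, and the order H3K4me1, H3K27me3, H3K9me3 held with every H3K27me3 cell number. Within tiles that overlapped a peak and held 20 or more calls the pooled level of 250K was 27.5%, and the median tile was at 66.3%.

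**Figure D1:**
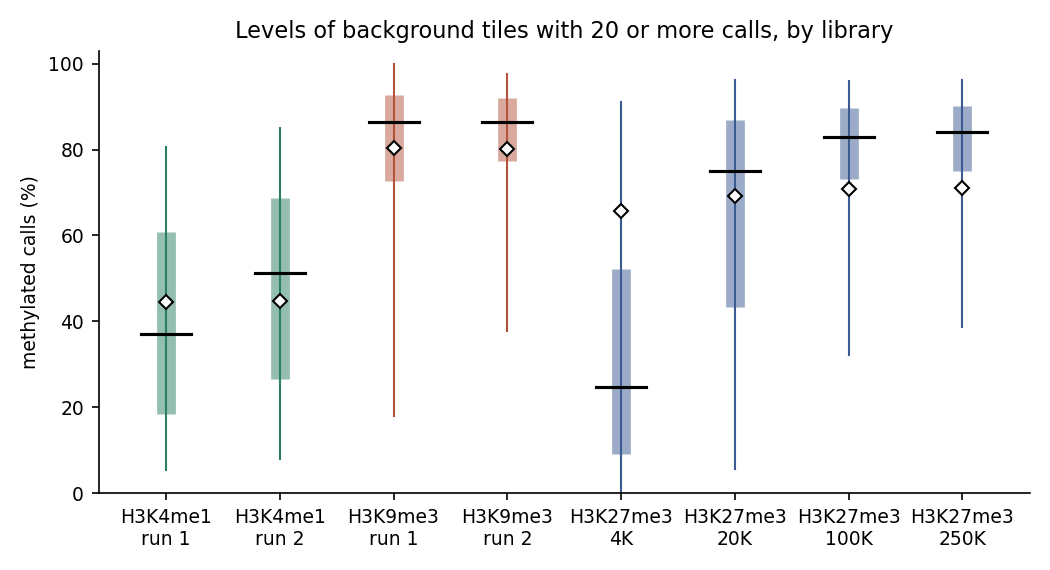
Methylation level (percent of calls) of the kept tiles that held 20 or more calls in each of the 8 libraries. Thin lines run from the 5th to the 95th percentile, thick bars are the quartiles, black lines the median tile and diamonds the pooled level over all calls of the kept tiles. The number of tiles differs from 138 (4K) to 51836 (250K), and in 4K the tiles that reach 20 calls have a median of 24.7% against a pooled level of 65.7%.

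At the threshold itself little changed. The 9882 tiles with 20 to 24 calls, just inside, had a pooled level of 83.0%, and the 14371 tiles with 15 to 19 calls, just outside, had 83.6%. All tiles outside peaks with fewer than 20 calls were at 83.5%. A tile with more CpGs can hold more calls, so the threshold itself sorts tiles by CpG content. The median was 82 CpGs just inside and 75 just outside. Over the full sets the kept tiles had a median of 98 CpGs and the tiles under 20 calls 55. Tiles that overlapped a peak and held 20 or more calls had 125.

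Level fell with CpG density, above all at the scale of local sequence. For each CpG the CpGs within 250 bp on either side were counted, the CpG itself included. In 250K the level was 83.1% at CpGs with 1 to 2 CpGs in this 501-bp window, 83.7% at 3 to 5, 82.1% at 6 to 10, 71.0% at 11 to 20, 26.3% at 21 to 30 and 4.3% at 31 or more. H3K4me1 run 2 was lower than 250K in every class, from 67.8% at 1 to 2 CpGs to 1.8% at 31 or more. H3K9me3 run 2 was higher than 250K in every class, from 84.9% to 13.5%, and the gap was widest at 21 to 30 CpGs, 53.5% against 26.3%. H3K9me3 run 1 gave 53.5% there as well, and H3K4me1 gave 13.7% and 15.0%.

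The cell numbers of H3K27me3 lay close together within most of these classes. At 3 to 5 CpGs per window the 4 libraries ranged from 82.9% (4K) to 83.7% (250K), and at 21 to 30 from 25.8% to 27.3%. The class of 11 to 20 spread more, from 65.2% in 4K to 71.0% in 250K. 4K placed 11.1% of its calls at CpGs with 31 or more neighbours in the window, against 9.0% in 250K, beside its pooled level of 65.7% against 71.1%.

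**Figure D2:**
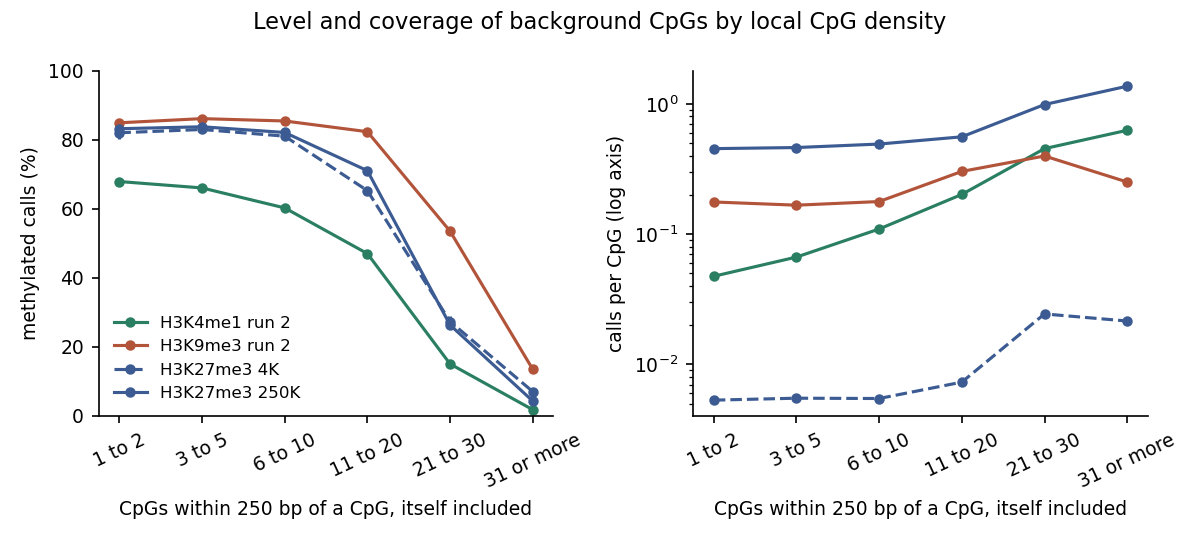
Left, methylation level (percent of calls) of CpGs in the kept tiles by the number of CpGs in the surrounding 501 bp, for 4 libraries, with Wilson 95% intervals mostly smaller than the points. Right, calls per CpG on a log axis for the same classes. Level drops between 11 to 20 and 31 or more CpGs in all 4 libraries, from 71.0 to 4.3% in 250K, while H3K4me1 coverage climbs from 0.048 to 0.627 calls per CpG.

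Coverage also followed density, with values that differed between the libraries. The tiles were kept by their number of calls in 250K and not in the other marks, so the choice itself shapes the 250K values. How much of the difference between libraries comes from this choice was not tested. In 250K a CpG with 31 or more in the window received 1.37 calls and one with 1 to 2 received 0.453. In H3K4me1 run 2 the values were 0.627 and 0.048, and in H3K9me3 run 2 0.251 and 0.177. CpGs of the densest class supplied 16.3% of the H3K4me1 run 2 calls in these tiles, 9.0% of the 250K calls and 4.3% of the H3K9me3 run 2 calls.

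Counted over whole tiles, CpG density mattered mainly in the densest class. Tiles with under 40 CpGs (340 tiles) had a pooled level of 78.7% in 250K, those with 40 to 59 (3952) 81.8%, 60 to 79 (9771) 82.2%, 80 to under 120 (24073) 80.1% and 120 or more (13700) 57.6%. The median tile moved less, from 85.7% at 60 to 79 CpGs to 80.3% at 120 or more. Tiles with 80 or more CpGs were 9.9 points lower than tiles with under 40 in 250K, and lower on 19 of 19 chromosomes. The difference was -3.5 points without the 150 tiles of 500 or more calls and -4.1 with equal weight for each covered CpG. In H3K9me3 it was -1.6 points in run 1 and 6.2 in run 2, where 8 of 19 chromosomes were positive, and in H3K4me1 -5.6 and -6.3. The H3K4me1 values rest on 156 and 357 calls in tiles with under 40 CpGs. In run 1 those tiles were at 49.4% (41.6 to 57.1), against 43.7% in the dense tiles. Only 2 and 7 chromosomes had enough H3K4me1 calls, of which 1 and 2 were positive.

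Much of the low level in CpG-dense tiles stood with gene starts. On the 18 chromosomes for which a promoter table was at hand, 3816 kept tiles held the start of a protein-coding gene. Their pooled level in 250K was 37.8% and their median tile was at 50.0%. The 43771 tiles with no listed gene start of any kind were at 76.4%, with a median tile of 84.9%. The promoter table had an entry for 16457 of the 20154 protein-coding genes on these chromosomes (81.7%), so unlisted starts can lie in these tiles. Here and below, a tile without a gene start is one without a listed start. The difference was negative on 18 of 18 chromosomes in each of the 8 libraries, with -38.6 points in 250K, -30.0 in H3K4me1 run 2 and -27.5 in H3K9me3 run 2. Among tiles with 120 or more CpGs, those with a protein-coding start were at 29.8% and those without any listed start at 67.2%. Without tiles that hold a start, the difference between dense and sparse tiles was -3.6 points in 250K and negative on 12 of 18 chromosomes.

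**Figure D3:**
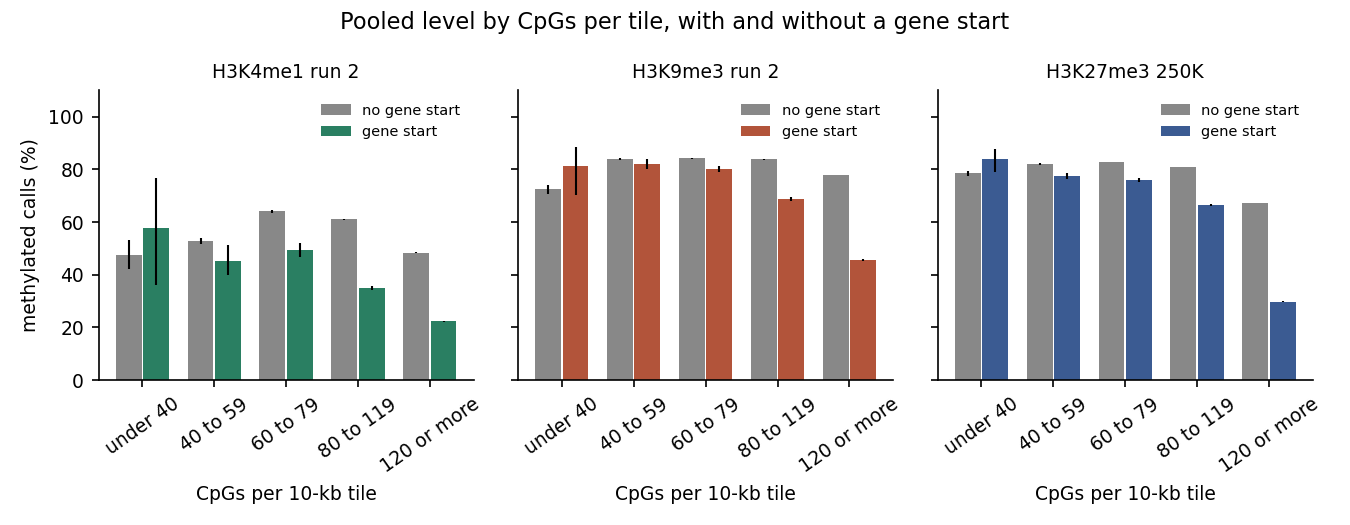
Pooled methylation level (percent of calls, Wilson 95% intervals as black lines) of kept tiles by CpGs per 10-kb tile in 3 libraries. Coloured bars are tiles with a protein-coding gene start, grey bars tiles with no listed gene start of any kind, on 18 chromosomes. In tiles with 120 or more CpGs the bars with a start stand at 22.4% (H3K4me1 run 2), 45.7% (H3K9me3 run 2) and 29.8% (250K).

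The promoters themselves separated by CpG content. The tiles held 4781 protein-coding promoters of 300 bp from 4156 genes, and 1824 had 10 or more calls in 250K. Of the 1080 covered promoters with 21 or more CpGs, 1072 were under 20%, and the pooled level of all 1655 in the class was 1.1%. With 11 to 20 CpGs, 512 of 545 covered promoters were under 20%, and the pooled level of all 1080 in the class was 8.6%. With 6 to 10 CpGs, 58 of 158 were under 20% and 38 over 80%, around a median of 47.0%. With 3 to 5 CpGs, 40 of 764 were covered, of which 9 were under 20% and 17 over 80%, around a median of 73.2%. The pooled level of all 764 was 62.3%. The densest class made up 34.6% of promoters in kept tiles and 34.8% of all protein-coding promoters in the table.

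The same order held in the other marks. Promoters with 21 or more CpGs had pooled levels of 0.8% in H3K4me1 run 2 and 2.4% in H3K9me3 run 2. Promoters with 3 to 5 CpGs were at 37.8% and 77.6%. 6 promoters with 11 or more CpGs exceeded 80% in 250K, and all 6 are named here although they were picked by their level: Hax1, Fam186a, Dnah14, Scn10a, Scoc and Serpina3a. Scn10a encodes a voltage-gated sodium channel of sensory neurons and Serpina3a a member of the serine protease inhibitor family. Scoc had 15 methylated of 17 calls in 250K (88.2%) and 83.3% of 18 calls in 100K. Hax1 had 13 methylated of 13 in 250K but 0.0% of 3 calls in 100K, and Fam186a and Serpina3a rested on 11 calls each.

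4 of the 5 lowest tiles with 100 or more calls in 250K are described here, and each held starts of protein-coding genes. The Nrd1 tile at chr4:109000001-109010000 had 1 methylated call of 130 in 250K and 3 of 29 in 100K, but 19 of 54 in H3K4me1 run 2. Nrd1 encodes nardilysin, a metallopeptidase. The tile of Hnrnpk, an RNA-binding protein, and Rmi1, a partner of the BLM helicase, at chr13:58400001-58410000, had 1 of 106 in 250K, 5 of 75 in 100K and 15 of 73 in H3K4me1 run 2. The Klf4 tile at chr4:55530001-55540000, with 365 CpGs, had 3 of 230 in 250K, 10 of 124 in 100K and 5 of 154 in H3K4me1 run 2. Klf4 is a transcription factor of the pluripotent state. The tile of Zbtb5 and Polr1e, an RNA polymerase I subunit, at chr4:45010001-45020000 had 2 of 149 in 250K, 3 of 122 in 100K and 8 of 175 in H3K4me1 run 2. H3K4me1 run 2 was thus above 250K in all 4 tiles, which were picked for a low level in 250K.

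By position relative to genes, mixed tiles were lowest. Of the kept tiles 19963 (38.5%) lay wholly inside a protein-coding gene, 16607 (32.0%) touched no gene and 15266 were mixed. Gene body tiles had a pooled level of 79.8% in 250K, intergenic tiles 78.6% and mixed tiles 57.6%. Gene body tiles exceeded intergenic tiles by 1.3 points in 250K, on 11 of 19 chromosomes, so the sign was not shared by the chromosomes. Without tiles that hold a gene start the difference was 2.9 points and positive on 16 of 18 chromosomes. In H3K4me1 run 2 it was 8.2 points without gene starts, 62.5% against 54.2%, and positive on 18 of 18. In H3K9me3 run 2 it was 0.6 points, positive on 15 of 18, with a chromosome median of 2.3 points. The deepest tiles of that library, described below, held 68268, 18832 and 16098 of its 457341 calls in intergenic tiles. They were at 87.4%, 85.1% and 85.3%, and the difference without them was not computed. Median tiles in 250K without gene starts were at 85.3% in gene bodies and 84.7% in intergenic sequence.

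2 lists of long genes, drawn up without expression data from these cells, were read. A kept tile counted when it lay mainly inside the gene, so it could also hold the gene's start. Of 28 long genes listed as active in most cell types, 10 had such a tile, 37 tiles of the 450 in these genes. Their median tile was at 84.6% in 250K and their pooled level at 67.4% (58.3% in 100K). Arid1b, a chromatin remodelling subunit, was at 87.9% of 322 calls, Utrn, which encodes utrophin, at 82.7% of 301 and Trrap, a histone acetyltransferase scaffold, at 86.6% of 134. Mycbp2, a ubiquitin ligase, was at 28.4% of 320 calls, from 1 tile. Herc1 and Pds5b, each from 1 tile and named after their values were seen, had 6 of 65 and 27 of 60 calls methylated. In 100K they had 2 of 37 and 6 of 81. In 20K the Pds5b tile had 15 of 15, so its level differed widely between the H3K27me3 libraries. Of 28 long neuronal adhesion and synapse genes, 26 had kept tiles, 358 of 3851, with a median tile of 82.8% and a pooled level of 79.5%. The list of active genes was higher by the median and lower by the pooled level. Its kept tiles had a median of 138 CpGs, against 73.5 in the neuronal list, and the Mycbp2 tile held 320 of its 1610 calls. The teneurins Tenm2 and Tenm3 were at 84.2% of 2724 calls and 85.3% of 1673, Dpp6, a potassium channel partner, at 79.9% of 1032 and Astn2 at 77.5% of 864. Over all kept tiles the median was 84.1%.

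Families of tissue-specific genes differed in how many of their tiles were kept, beside 21.6% of all tiles. Keratin genes kept 43.8%, beta-defensins 28.3%, serpins 17.4%, cytochrome P450 genes 15.5% and olfactory receptor genes 10.3%. The 129 tiles of olfactory receptor genes had a median of 82.0% and a pooled level of 78.5% in 250K. Keratin genes had 39 tiles at a median of 87.3% and a pooled 82.8%, and beta-defensins 17 at 84.6% and 82.6%. The cytochrome P450 genes had 56 at 81.8% and 74.6%, and serpins 30 at 84.9% and 72.0%. Vomeronasal receptor genes had 3 and 8 kept tiles, of 259 and 439 in the 2 classes, with medians of 80.8% and 71.4% and 76 of 169 and 180 of 265 calls methylated.

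A small number of tiles carried much of the unmethylated signal. Tiles with 20 to 49 calls in 250K (33902) had a pooled level of 81.3%, those with 50 to 99 (13859) 76.8%, those with 100 to under 500 (3925) 67.0% and those with 500 or more (150) 25.9%. The last 150 tiles held 10.9% of all kept calls, and 121 of them were under 50%. They were as deep relative to the rest in 100K, with a median of 886 calls against 27 over all kept tiles. Without them the pooled level of 250K was 76.6% in place of 71.1%.

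**Figure D4:**
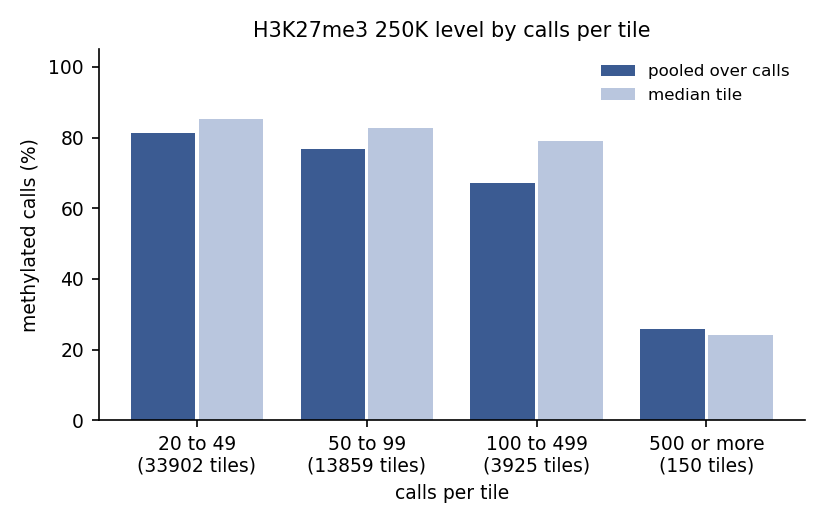
Methylation level in 250K (percent of calls) of the kept tiles by calls per tile, with the number of tiles under each class. Dark bars pool all calls and light bars give the median tile. The 150 tiles with 500 or more calls stand at 25.9% pooled, against 81.3% in tiles with 20 to 49 calls.

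The deepest tile, chr17:39840001-39850000, holds Rn18s-rs5, which the annotation lists as a pseudogene related to 18S ribosomal RNA. Its 628 CpGs received 33786 calls in 250K, of which 3.2% were methylated. Levels there were 2.8% in 100K, 3.3% in 20K, 2.2% in 4K, 1.4% in both runs of H3K4me1, 4.1% in H3K9me3 run 1 and 3.3% in run 2. All 8 libraries were thus at 4.1% or less in this tile. Ribosomal DNA is present in many copies, and which copies these calls come from cannot be told from counts per position. The tile held 1.2% of the kept calls in 250K and 2.6% in H3K4me1 run 2, and without it the lowest chromosome in 250K was at 63.2% and not 51.2%.

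Other deep tiles lay in runs. 8 tiles within chr17:35370001-35480000 hold H2-Q4, H2-Q6, H2-Q7 and H2-Q10, MHC class I genes of the Q region, and had 33392 calls in 250K at 28.4%, with 28.4% in 100K. These genes are close paralogs, so the placing of their reads is uncertain. 3 tiles within chr1:171060001-171090000, with a cluster of tRNA genes beside Fcgr3, had 12966 calls at 16.9%. 7 tiles within chr19:45010001-45090000, with Kazald1, Lzts2 and Twnk among their genes, had 15723 calls at 26.98%. The tile of Gcgr, the glucagon receptor, at chr11:120530001-120540000 had 6952 calls at 36.3%, and that of Ess2 and the homeobox gene Gsc2 at chr16:17910001-17920000 had 6222 at 15.9%. These places have calls at the depth of H3K27me3 peak tiles and no listed peak. Why no peak is listed there was not tested.

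The 3 tiles with most calls in H3K9me3 run 2 were methylated. The deepest, chr2:98660001-98670000 in intergenic sequence, had 68268 calls in run 2 at 87.4%, 16239 in run 1 at 86.9% and 4705 in 250K at 85.1%. The tiles at chr9:3000001-3010000 and chr9:3020001-3030000 followed with 18832 calls at 85.1% and 16098 at 85.3%. All 3 also had 500 or more calls in 250K (4705, 1042 and 597), at 85.1%, 80.6% and 83.1%. Of the 150 kept tiles with that many calls in 250K, 121 were under 50%. The Rn18s-rs5 tile, with 5408 calls in H3K9me3 run 2, was deep in this library too, and low.

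By distance to the nearest peak the pooled level varied more than the median tile. Tiles under 10 kb from a peak were at 73.5% pooled in 250K with a median tile of 83.6%, those at 10 to 50 kb at 69.9% and 84.6%, those at 50 to 100 kb at 71.3% and 85.0%, and those over 100 kb at 58.1% and 82.6%. In H3K4me1 run 2 the pooled level was 46.3% in tiles under 10 kb from a peak and 34.9% in tiles over 100 kb from one.

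Pairs of libraries were compared tile by tile with Fisher's exact test (two-sided, Benjamini-Hochberg adjusted over every tile of chromosomes 1 to 19 with 10 or more calls in both libraries, threshold 0.05). The test takes calls as independent, which calls on the same fragment are not, so adjusted p-values here and below can be too small. H3K9me3 run 2 and 250K were close. Of 30795 kept tiles tested, 442 (1.44%) were higher in H3K9me3 and 267 (0.867%) in 250K, where over all 80064 tiles tested 3.98% and 0.942% were called. The median difference was 1.4 points. 54.4% of the tiles had the higher level in H3K9me3.

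H3K4me1 run 2 was lower than 250K. Of 14430 kept tiles 3207 (22.2%) were called lower and 286 (1.98%) higher in H3K4me1, where over all 53131 tiles tested 30.0% and 4.02% were called. The median difference was -12.1 points, and 24.2% of tiles had a higher level in H3K4me1. H3K9me3 run 2 was higher than H3K4me1 run 2 in 1494 of 7695 kept tiles (19.4%) and lower in 109 (1.42%), where over all 32486 tiles 32.0% and 1.36% were called, with a median difference of 14.7 points. 100K and 250K differed in 138 tiles (0.296%) one way and 164 (0.351%) the other of 46660, where over all 105038 tiles 0.443% and 0.637% were called, with a median of -0.03 points. The share called in kept tiles lay below that over all tiles in every direction but H3K4me1 higher than H3K9me3, where it was near it.

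The differences were smaller at CpGs read by both libraries. At such CpGs 143 kept tiles of 6537 were called between H3K4me1 run 2 and 250K, and the median difference was -2.1 points in place of -11.4 at all CpGs of the same tiles. Between H3K9me3 run 2 and H3K4me1 run 2, 88 of 1576 were called and the median was 3.8 in place of 11.5. Fewer calls remain per tile in this comparison, so fewer tiles can pass the test. The share called over all tiles was not counted at shared CpGs. Whether these counts are particular to the kept tiles was therefore not tested.

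The level of 250K itself depended on whether H3K4me1 had read the CpG. At the 181216 kept-tile CpGs that H3K4me1 run 2 also read, the mean level per CpG in 250K was 51.4%. At the 1543907 CpGs that H3K4me1 run 2 did not read it was 80.7%. At the shared CpGs H3K4me1 run 2 had a mean of 48.5%, which was 2.9 points lower and lower on 19 of 19 chromosomes. Run 1 gave the same difference of -2.9 points, on 19 of 19. Pooled over calls the sign turned, 38.1% in H3K4me1 run 2 against 36.4% in 250K, and pooling gives the deepest CpGs the most weight.

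For H3K9me3 the result depended on the weighting. As a mean per CpG, 250K was at 76.5% where H3K9me3 run 2 also read and at 77.8% where it did not. At the 263203 shared CpGs H3K9me3 run 2 was at 77.7%, 1.2 points higher, and higher on 19 of 19 chromosomes. Pooled over calls, 250K was at 63.7% at the shared CpGs and 72.7% elsewhere, and H3K9me3 run 2 was at 77.1% at the shared CpGs. Without the Rn18s-rs5 tile the pooled levels at shared CpGs were 77.9% in H3K9me3 run 2 and 68.0% in 250K. 100K and 250K differed by -0.15 points at 616963 shared CpGs, with 11 chromosomes negative and 8 positive.

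**Figure D5:**
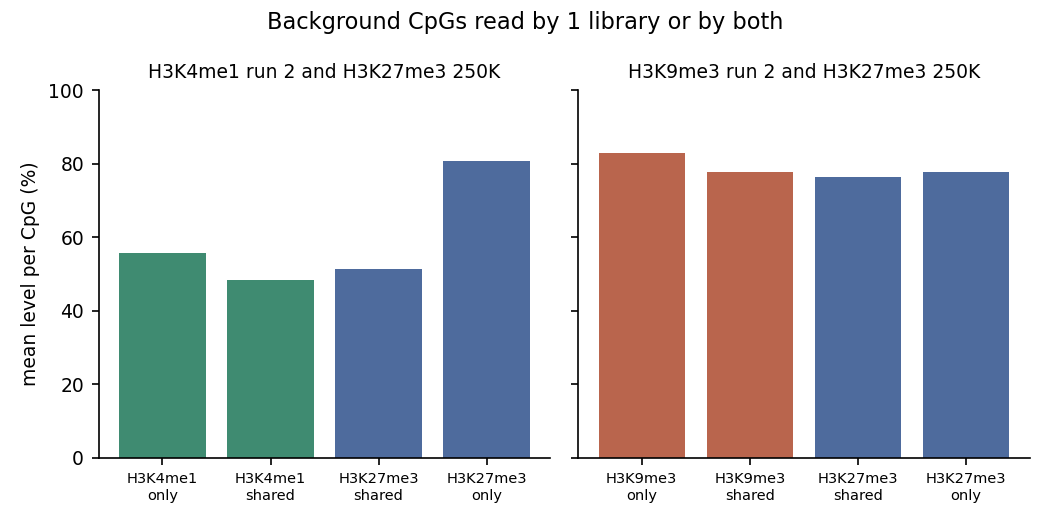
Mean methylation level per CpG (percent, each covered CpG with equal weight) in the kept tiles, split by whether a CpG was read by 1 library of a pair or by both. Left, H3K4me1 run 2 with 250K; right, H3K9me3 run 2 with 250K. The 250K level is 51.4% at CpGs shared with H3K4me1 and 80.7% elsewhere, and at shared CpGs the bars of a pair differ by 2.9 and 1.2 points.

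Some tiles kept a large difference at the very same CpGs. At chr17:6490001-6500000, with the pseudogene Ppp1r2-ps5, H3K9me3 run 2 had 903 methylated calls of 1023 (88.3%) and 250K had 34 of 700 (4.9%), exact test adjusted p = 4.3e-293. H3K9me3 run 1 was at 85.5% of 303 calls, and 100K and 20K were at 5.4% and 2.0%. At the 36 CpGs read by both the levels were 78.5% and 7.5%. At chr6:3200001-3210000, with the pseudogene Gm2651, they were 78.4% of 515 calls and 4.3% of 395, exact test adjusted p = 1.5e-123, and at 53 shared CpGs 52.7% and 4.3%. H3K4me1 run 2 was at 7.0% of 200 calls there. In both tiles H3K9me3 run 2 was above 250K at the same positions, although in the second its 52.7% there was below its 78.4% over the tile. Both genes are annotated as pseudogenes, and how reads shared with related copies were placed is not given in the sources used here.

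The largest H3K4me1 differences from 250K were of both kinds. At chr10:22140001-22150000, with the start of E030030I06Rik, H3K4me1 run 2 was at 54.4% of 195 calls and 250K at 4.4% of 681, exact test adjusted p = 1.5e-50, and at 26 shared CpGs at 51.5% and 3.0%. H3K4me1 run 1 was at 50.0% and H3K9me3 run 2 at 41.4% of 99. At chr9:113700001-113710000, with the start of Pdcd6ip, an endosomal sorting gene, the levels of 73.1% and 18.1% (exact test adjusted p = 3.2e-10) became 82.6% and 66.7% at the 12 shared CpGs. In the other direction, the Fam8a1 tile at chr13:46660001-46670000 was at 8.6% of 81 calls in H3K4me1 run 2 and 40 methylated calls of 50 in 250K (exact test adjusted p = 3.8e-15), and the Srl tile at chr16:4470001-4480000 at 15.7% of 102 and 80.6% of 72 (exact test adjusted p = 5.2e-16). At shared CpGs Srl kept 12.1% against 54.2%, on 33 and 24 calls, and Fam8a1 37.5% of 8 calls against 8 methylated of 10.

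Between H3K9me3 run 2 and H3K4me1 run 2 the extremes were the tile of Gm10080 and Hyou1, an endoplasmic reticulum chaperone, at chr9:44370001-44380000 (90.9% of 55 against 5 methylated calls, 4.2%, exact test adjusted p = 1.7e-29) and the Serinc5 tile at chr13:92610001-92620000 (85.2% of 88 against 4.6% of 152, exact test adjusted p = 3.6e-37). The first had 0 shared CpGs. The second had 7, where the order turned, 0.0% of 7 calls against 15.4% of 13. The opposite pair was Msmo1, of sterol synthesis, at chr8:64730001-64740000 (3.2% of 62 against 33.8% of 71, exact test adjusted p = 5.2e-05) and Eef1e1 at chr13:38650001-38660000 (3.9% of 102 against 33.9% of 248, exact test adjusted p = 3.5e-09). At the 35 shared CpGs of Eef1e1 the levels were 3.1% and 10.8%, and at the 18 of Msmo1 both were 0.0%.

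H3K9me3 run 2 was lowest against 250K in the tile of the noncoding RNA gene C030034I22Rik at chr17:69410001-69420000 (8.5% of 59 against 61.8% of 102, exact test adjusted p = 1.2e-09) and in that of Trp53bp2, a p53-binding apoptosis gene, at chr1:182400001-182410000 (17.5% of 57 against 64.9% of 148, exact test adjusted p = 1.3e-07). At shared CpGs both libraries were at 9.1% in the first, and at 32.1% and 26.1% in the second. Between 100K and 250K the largest difference was in the tile of Nat8f1 and Tprkb at chr6:85910001-85920000 (15.3% of 59 against 65.2% of 69, exact test adjusted p = 3.6e-05), with 37.5% and 65.0% at 8 shared CpGs. In the other direction the largest was at Ndfip2, an adaptor of Nedd4-family ligases, at chr14:105250001-105260000 (64.4% of 90 against 17.4% of 236, exact test adjusted p = 1.5e-10). Mrps33, a mitochondrial ribosomal protein gene, followed Nat8f1 and Tprkb at chr6:39810001-39820000 (17.8% of 101 against 64.3% of 56, exact test adjusted p = 2.7e-05). At 38 shared CpGs Ndfip2 kept 62.5% and 26.2%. The Ctu2 and Rnf166 tile at chr8:122470001-122480000 was at 68.6% of 51 and 23.8% of 80 (exact test adjusted p = 0.00058), and at 7 shared CpGs the order turned, on 7 calls in each.

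Across tiles the libraries ranked places alike. Over tiles with 20 or more calls in both, Pearson's r of tile levels was 0.84 between 100K and 250K (34558 tiles), 0.76 between H3K9me3 run 2 and 250K (14993) and 0.75 between H3K4me1 run 2 and 250K (8777). The runs reached 0.94 for H3K4me1 (4501 tiles) and 0.92 for H3K9me3 (1958). These are descriptions over tiles that share sequence and CpG density, not over replicates.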

How the data were processed

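Per the file headers, the authors deposited a table of 2 counts for each CpG in 8 bisulfite libraries, the methylated and the total calls, both strands of a CpG on 1 line, and peak positions for each library and, unified, for each mark. The submitters' processing notes name cutadapt 1.12, Bismark 0.23.0, Bowtie2 2.3.0, HOMER 4.10.3, bedtools 2.29.2 and the build mm10. The treatment of duplicate reads is not given in the sources used here. 0 sample columns were left unused.

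Counts were summed over 10-kb tiles without normalization, with Python 3.11.15, numpy 2.4.6, pandas 2.3.3 and scipy 1.17.1. CpG positions in 31396 RefSeq promoter sequences (GRCm38.p6) matched the table at 395568 of 395568 CG dinucleotides. Genes came from RefSeq, without strand, and promoters of 1 autosome were not used here. Levels are shares of calls with Wilson 95% intervals, and where no call was methylated the upper limit assumes 3 counts. Tiles with 10 or more calls in both libraries entered Fisher's exact test, which was tested on simulated data: of 200 tiles changed by 40 points in a simulated pair of H3K9me3 run 2 and 250K (80064 tiles), 40 were recovered and 0 others were called. The simulated calls were independent, unlike calls on the same fragment. The simulation therefore cannot show how many false calls the real data hold.

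Run 2, the deeper, stood for its mark. Runs may share molecules, so they were not counted as replicates. Run numbers of H3K4me1 and H3K9me3 share a read length, 35 bp in run 1 and 75 bp in run 2. Run deviations of the 2 marks correlated at -0.0093 over 1540 tiles. Counting error enters these deviations, so this value cannot show whether run numbers pair the libraries in other ways. Named tiles are the 5 lowest with 100 or more calls, 1 at the median and, for each pair, the called tiles with the largest differences and 50 or more calls in both. 1 of the 5 lowest tiles is not reported here. From each gene list the 4 genes with most calls are named. The tiles with most calls were named after their values were seen. The regions, lists and tests were chosen with earlier results of these data known.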

Additional observations from a re-analysis of the deposited data

Results flagged for a closer look

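The pooled difference between CpG-dense tiles (80 or more CpGs) and CpG-poor tiles (under 40) was taken among tiles with no listed gene start. Its sign differed between the marks, but several of the values lay within counting error. In H3K4me1 dense tiles were 5.43 points (run 1) and 5.31 points (run 2) higher. In H3K9me3 they were 0.648 points (run 1) and 9.03 points (run 2) higher. In H3K27me3 the differences were -2.45 (4K), -3.86 (20K), -2.49 (100K) and -3.58 points (250K). The difference between the marks was not tested. Single chromosomes did not share the pooled signs. Dense tiles were higher on 3 of 6 chromosomes with enough calls in H3K4me1 run 2, on 10 of 18 in H3K9me3 run 2 and on 6 of 18 in 250K.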

How the results depend on the processing

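Each alternative changed 1 choice, and of 60 alternative values 22 stayed within the interval or within 1.5 times the count, 38 moved and 0 turned direction. The pooled level of 250K (71.1%) was 73.0% with 10 calls per tile, 65.1% with 50, 71.5% with tiles shifted by 5000 bp, 69.2% with no peak within 10 kb and 77.6% with equal weight for each covered CpG. Added after seeing the data, it was 71.9% without the Rn18s-rs5 tile and 76.6% without tiles of 500 or more calls. The gene body difference (1.27 points) was 1.56 with 50 calls, 1.75 away from peaks, 0.934 with equal weight, 2.54 at equal CpG density and, added, 2.94 without gene starts. The difference of dense and sparse tiles (-9.92 points) was -9.06, -11.3 and -4.09 in the first 3 of these settings, and, added, -3.46 without tiles of 500 or more calls and -3.58 without gene starts.

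At shared CpGs fewer kept tiles were tested and called. For H3K9me3 against 250K the count went from 709 of 30795 tested to 85 of 9803. For H3K4me1 against 250K it went from 3493 of 14430 to 143 of 6537. For H3K9me3 against H3K4me1 it went from 1603 of 7695 to 88 of 1576, and for 100K against 250K from 302 of 46660 to 12 of 27143. With at most 1 call counted per CpG the counts were 161 of 28491, 1268 of 13083, 639 of 6514 and 11 of 45135. Median differences at shared CpGs were 0.758, -2.06 and 3.81 points, and away from peaks -12.9 (H3K4me1 against 250K) and 15.4 (H3K9me3 against H3K4me1). With 20 calls in both, 893 of 2323 tiles tested differed between H3K9me3 and H3K4me1, against 1603 of 7695 in the main setting. Without replicate 2 (run 1 in its place) the counts were 213 of 9702, 1885 of 8867 and 280 of 1630. The medians of the H3K9me3 pairs were then 2.02 and 13.7. With both runs summed, 1106 of 36865 and 2823 of 11874 tiles differed in the H3K9me3 pairs. With the run as a replicate block (Cochran-Mantel-Haenszel), 1978 of 7695 tiles differed between H3K9me3 and H3K4me1, 1859 of them higher in H3K9me3. Shares called over all tiles were not counted for these alternatives. Fewer calls enter at shared CpGs, at 1 call per CpG and in run 1. The cause of the other shifts was not tested. Depth limits the tile tests: on simulated data with independent calls, 20 of 27 changed tiles with 30 or more calls in both libraries were recovered.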
